A study of Mus musculus with 36 samples.

Results

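The transcripts of 10 mitochondrial chaperones and proteases were followed across 36 RNA-seq libraries of mouse embryonic fibroblasts, which are cells grown from the connective tissue of mouse embryos. The genes were chosen by name, with earlier results of these data known. They were the chaperones Hspd1, Hspe1, Hspa9 and Trap1, and the matrix proteases Lonp1, Clpp and Clpx. The membrane and intermembrane space proteases were Afg3l2, Spg7 and Htra2. These 10 genes stood among 36856 gene symbols in the deposited count table. All 10 were among the 16065 symbols that passed the filter on low counts. The cells were WT or PERK -/-, that is, without the endoplasmic reticulum kinase PERK. Each genotype was treated in 6 ways: with the solvent DMSO, with thapsigargin (Tg), with BtdCPU or halofuginone alone, or with either compound and Tg together. Each of the 12 groups had 3 replicate libraries. The labels give neither a dose nor a treatment time. They name no more than 1 line per genotype and do not say whether replicates were separate cultures, so genotype and cell line cannot be told apart, and p-values measure the spread between these libraries, which may be technical.

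Most mitochondrial proteins are made in the cytosol and threaded unfolded through the import channels. In the matrix, mortalin (Hspa9) pulls them in and the HSP60 barrel (Hspd1) with its HSP10 lid (Hspe1) folds them. Proteins that fail to fold are degraded by Lon (Lonp1), by the ClpP barrel (Clpp) fed by the unfoldase ClpX (Clpx), or, in the inner membrane, by the m-AAA protease built from Afg3l2 and paraplegin (Spg7). The mitochondrial unfolded protein response is the name for a rise of such genes, and in mammalian cells it overlaps with the integrated stress response (ISR), in which kinases including PERK, HRI and GCN2 modify the translation factor eIF2 and so favour translation of ATF4. Tg empties the calcium store of the endoplasmic reticulum and activates PERK. BtdCPU is known as an activator of HRI, and halofuginone activates GCN2 by blocking prolyl-tRNA synthetase. The design asks how cells without PERK respond to endoplasmic reticulum stress when another kinase of the ISR is switched on by a compound.

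Hspd1 and Hspe1 lie head to head on mouse chromosome 1 and overlap by 96 bases in the RefSeq annotation of GRCm38.p6. Whether counting used strand is not given in the sources used here, so reads of the overlap could have been counted for either gene, and its part in their levels, ratio and likeness was not tested. The region around their starts is known as a promoter that serves both. It is shown because the values of the pair are set side by side below. RefSeq promoter windows, from 250 bases before a start to 50 after it, were at hand for 7 of the 10 genes. Hspa9, Afg3l2 and Htra2 had none. The 250 bases before the starts of Hspe1 (chr1:55087898-55088147, plus strand) and of Lonp1 (chr17:56626904-56627153, minus strand), the protease with the largest change in WT cells under Tg, read 5′ to 3′ as follows, with capitals for matches to the heat shock motif.
Hspe1: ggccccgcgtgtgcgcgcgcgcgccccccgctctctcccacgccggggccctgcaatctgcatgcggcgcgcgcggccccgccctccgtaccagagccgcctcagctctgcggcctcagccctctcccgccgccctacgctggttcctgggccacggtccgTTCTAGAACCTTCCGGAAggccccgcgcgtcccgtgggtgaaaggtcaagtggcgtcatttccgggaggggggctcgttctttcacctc
Lonp1: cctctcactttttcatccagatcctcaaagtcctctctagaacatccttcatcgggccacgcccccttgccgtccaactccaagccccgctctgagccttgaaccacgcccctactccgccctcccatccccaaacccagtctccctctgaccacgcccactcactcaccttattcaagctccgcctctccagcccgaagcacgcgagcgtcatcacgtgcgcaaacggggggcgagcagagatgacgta
The motif was searched as GAANNTTC and as TTCNNGAA, which both read the same on either strand and are parts of the longer heat shock element. GAANNTTC occurred in 7.86% and TTCNNGAA in 8.52% of 32851 windows of this length. The capital run of Hspe1, 18 bases that begin 89 bases before its start, is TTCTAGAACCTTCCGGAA. It joins 3 overlapping matches, and that joined form, a TTCNNGAA on either side of 2 free bases, stood in 5 of the 32851 windows, or 0.0152%. These 5 include the window of Hspe1 itself and that of Hspd1 at the same place, so the share is not independent of this run. A window of Hspd1 (chr1:55087883-55088182, minus strand) holds the same bases read from the other strand, TTCCGGAAGGTTCTAGAA, beginning 144 bases before that start. Clpp had a single match, TTCCGGAA, 34 bases after its start, and the windows of Lonp1, Clpx, Spg7 and Trap1 had none. The other window of Hspd1 (chr1:55088194-55088493, minus strand) had none either. The 96-base overlap with Hspe1 reaches to the start of this other window, and the Hspd1 start whose window holds the run lies outside that overlap. A motif of ATF4 with C/EBP partners, searched as TGATGNAAN on both strands and present in 3.95% of all windows, matched none of the 8 windows of these genes. A match or its absence in such a window is a description of letters and says nothing of binding.

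Libraries held 32454257 to 37178107 counts, and counts of the 10 genes ran from 1507 (Hspe1) to 103634 (Hspa9) in a library. Levels are given in CPM, that is, counts relative to the library size after TMM scaling, as mean ± SD of 3 libraries or library by library in the order of the replicate numbers. Changes are log2 fold changes ± standard error from edgeR, and a gene is called changed at an adjusted p under 0.05. The gene of PERK, Eif2ak3, stood at 31.1 ± 1.10 CPM in WT DMSO libraries and at 9.95 ± 0.760 CPM in PERK -/- DMSO libraries, a log2 change of -1.65 ± 0.19, edgeR adjusted p = 8.69e-09. Transcripts of the gene thus remained detectable in PERK -/- cells, and what was deleted is not given in the sources used here. All 8 fibroblast markers examined were present, and their summed level was 13766 to 38995 CPM in a library. The summed levels of 4 epithelial, 4 immune and 4 endothelial markers reached at most 5.06 CPM, and Cd3e was at 0 counts in every library. Trap1 overlaps Dnase1, whose level was at most 1.39 CPM in any library, and Htra2 overlaps Loxl3 and Aup1. The levels of Loxl3 and Aup1 are given beside those of Htra2 for DMSO, Tg and WT halofuginone cells, and not for the other groups. In bulk RNA, fewer cells of a kind and less RNA per cell cannot be told apart.

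Per kilobase of the longest principal transcript, the order of transcript levels in WT DMSO cells put the folding machinery first. Hspa9 stood at 316 CPM per kilobase, Hspd1 at 246 and Hspe1 at 134. Trap1, the mitochondrial HSP90, followed at 87.1 and Clpp at 84.7. Lower still were Lonp1 at 60.4, the intermembrane space protease Htra2 at 58.2, Spg7 at 40.4, Clpx at 33.9 and Afg3l2 at 33.5 CPM per kilobase. Levels from here on are CPM without division by length, so a level is compared only with levels of the same gene.

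**Figure D1:**
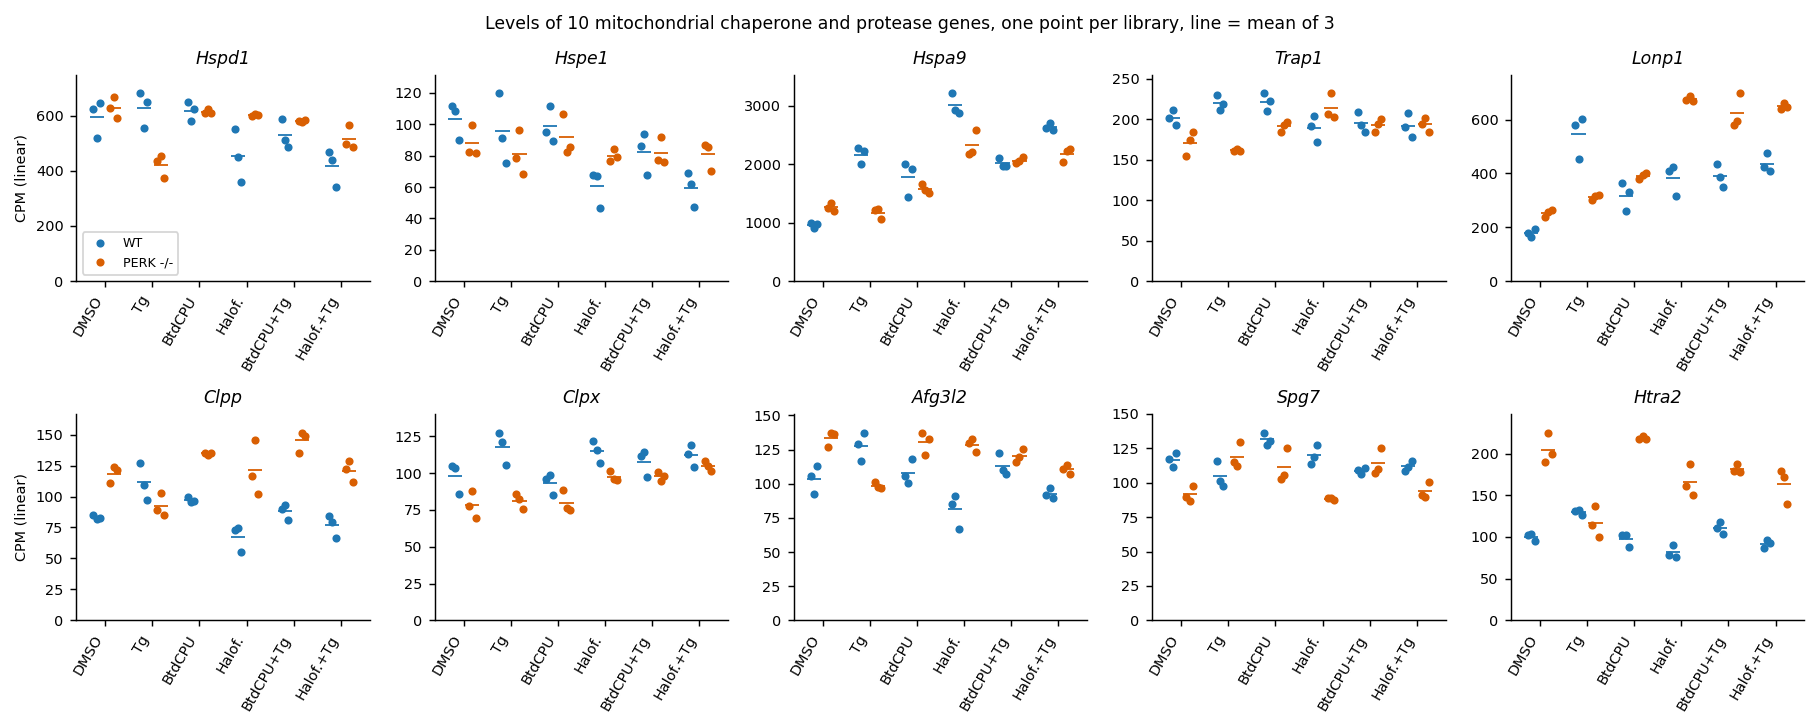
Level of each of the 10 genes in CPM (vertical axis, linear, from 0) in the 6 treatments (horizontal axis), with 1 point per library, blue for WT and orange for PERK -/-, and a line at the mean of 3. Hspa9 and Lonp1 span the widest range of group means, from 963 to 3001 CPM and from 178 to 676 CPM, and Htra2 is higher in PERK -/- than in WT DMSO libraries.

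In DMSO, PERK -/- cells already differed from WT cells in 8 of the 10 transcripts. Htra2, Clpp, Lonp1, Hspa9 and Afg3l2 were higher (5 of 10, against 24.6% of all tested genes called higher), and Spg7, Clpx and Trap1 were lower (3 of 10, close to the 24.9% called lower). The largest difference was that of Htra2, a serine protease that is known to promote cell death when it leaves the mitochondrion. Its level was 102, 104 and 95.4 CPM in the WT libraries and 189, 225 and 199 CPM in the PERK -/- libraries, without overlap (log2 change 1.03 ± 0.11, edgeR adjusted p = 1.09e-09). Lonp1 stood at 179, 162 and 194 CPM in WT and 237, 257 and 265 CPM in PERK -/- libraries. Its log2 change was 0.50 ± 0.12, edgeR adjusted p = 0.000525. The subunits of the 2-part proteases moved apart. Clpp was higher (log2 change 0.51 ± 0.12, edgeR adjusted p = 0.000535) while its partner Clpx was lower (-0.32 ± 0.10, edgeR adjusted p = 0.00676), and Afg3l2 was higher (0.37 ± 0.09, edgeR adjusted p = 0.0015) while its partner Spg7 was lower (-0.35 ± 0.08, edgeR adjusted p = 0.000895). Among the chaperones, Hspa9 was higher (0.39 ± 0.10, edgeR adjusted p = 0.00106) and Trap1 lower (-0.24 ± 0.08, edgeR adjusted p = 0.0127). The chaperonin pair was not called, with log2 changes of 0.08 for Hspd1 (95% interval -0.17 to 0.32) and -0.24 for Hspe1 (-0.57 to 0.10). The call of Trap1 was lost without WT DMSO replicate 2 (-0.21) or PERK -/- DMSO replicate 1 (-0.18), with raw library sizes (-0.19), without the low-count filter (-0.28) and in a fit of these groups alone (-0.24), and that of Clpx without PERK -/- DMSO replicate 3 (-0.24). From WT to PERK -/- DMSO cells, Loxl3 stood at 271 ± 33.8 and 99.4 ± 7.38 CPM, and Aup1 at 159 ± 0.561 and 241 ± 13.0 CPM. Without the use of strand given, reads of these overlaps could have been counted for either gene, and their part in the Htra2 values was not tested.

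Tg raised 6 of the 10 transcripts in WT cells, and in PERK -/- cells it raised 2 and lowered 4. In WT cells Lonp1 rose 3.06-fold and Hspa9 2.24-fold, and Clpp, Htra2, Afg3l2 and Clpx rose by smaller amounts. None of the 10 fell with edgeR, also at an unadjusted p under 0.05 (0 of 10). In the background, 24.9% of tested genes were called higher and 22.7% lower, and the median log2 change was 0.29 over the 10 genes and 0.02 over all tested genes. In PERK -/- cells Spg7 and Lonp1 were called higher (15.2% of all tested genes) and Htra2, Hspd1, Afg3l2 and Clpp lower (12.7% of all tested genes), with a median of -0.11 over the 10 genes and 0.05 over all genes.

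The chaperonin pair was not called in WT cells under Tg. Hspd1 stood at 625, 521 and 645 CPM in WT DMSO libraries and at 682, 556 and 650.3 CPM in WT Tg libraries, which overlapped (log2 change 0.08, 95% interval -0.17 to 0.32). PERK -/- libraries went from 627, 668 and 592 CPM in DMSO to 435, 453 and 374 CPM in Tg. All 3 Tg libraries lay below all 3 DMSO libraries, and the log2 change of Hspd1 was -0.58 ± 0.12, edgeR adjusted p = 0.000372. Hspe1, the lid of the same complex, did not pass the test in either genotype. Its log2 change was -0.12 (95% interval -0.45 to 0.22) in WT and -0.11 (-0.45 to 0.22) in PERK -/- cells, and its groups overlapped.

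Hspa9, the HSP70 of the matrix and motor of import, had the largest difference between the genotypes among the chaperones. In WT cells it stood at 999, 909 and 982 CPM in DMSO and at 2269.9, 1997 and 2218 CPM in Tg, and the lowest Tg library held about 2 times the level of the highest DMSO library (log2 change 1.17 ± 0.10, edgeR adjusted p = 1.87e-11). The PERK -/- values were 1257, 1328 and 1200.2 CPM in DMSO and 1216, 1239 and 1055 CPM in Tg. These groups overlapped, and the change was not called (log2 -0.11 ± 0.10, edgeR adjusted p = 0.445). Trap1 was called in neither genotype, at 0.12 (95% interval -0.04 to 0.29) in WT and -0.08 (-0.24 to 0.09) in PERK -/- cells.

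Of the matrix proteases, Lonp1 changed most. WT libraries held 179, 162 and 194 CPM in DMSO and 578, 455 and 604 CPM in Tg (log2 change 1.61 ± 0.12, edgeR adjusted p = 1.26e-12). PERK -/- libraries held 237, 257 and 265 CPM in DMSO and 299.7, 317 and 319 CPM in Tg. The PERK -/- groups did not overlap, and the log2 change was 0.30 ± 0.12, edgeR adjusted p = 0.0478. That call rested on all 6 libraries: it was lost whichever was left out, with log2 changes between 0.26 and 0.34, and also with DESeq2 (0.28), with its size factors (0.28) and without the low-count filter (0.27). Clpp moved in opposite directions: it rose in WT cells from 83.3 ± 1.31 to 111 ± 14.8 CPM (0.42 ± 0.12, edgeR adjusted p = 0.0038) and fell in PERK -/- cells from 118 ± 6.91 to 92.5 ± 9.08 CPM (-0.36 ± 0.12, edgeR adjusted p = 0.0206). The fall of Clpp was no longer called without replicate 1 (-0.33) or 3 (-0.30) of Tg, or replicate 2 (-0.33) or 3 (-0.34) of DMSO. Clpx rose slightly in WT cells (0.27 ± 0.10, edgeR adjusted p = 0.0228) and was not called in PERK -/- cells (0.05 ± 0.10, edgeR adjusted p = 0.758). Its call in WT cells was lost without Tg replicate 1 (0.21) or 2 (0.25), without DMSO replicate 3 (0.18), with raw library sizes (0.25), without the low-count filter (0.24) and in a fit of the compared groups alone (0.27).

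The membrane proteases and Htra2 also parted by genotype. Afg3l2 rose in WT cells from 104 ± 10.5 to 128 ± 10.5 CPM (0.30 ± 0.09, edgeR adjusted p = 0.00803) and fell in PERK -/- cells from 133 ± 5.90 to 98.4 ± 2.24 CPM (-0.44 ± 0.09, edgeR adjusted p = 0.000469). Spg7, the other subunit of the same protease, did the reverse in PERK -/- cells. It was at 89.9, 87.0 and 98.0 CPM in DMSO and at 115, 112 and 129.8 CPM in Tg, without overlap (0.38 ± 0.08, edgeR adjusted p = 0.000967), and it was not called in WT cells (-0.16 ± 0.08, edgeR adjusted p = 0.131). Htra2 stood at 117 ± 18.5 CPM in PERK -/- Tg libraries, all 3 below the DMSO libraries given above. Its log2 change there was -0.81 ± 0.10, edgeR adjusted p = 4.39e-07, the largest fall among the 10 genes in that comparison, while in WT cells it rose from 100.4 ± 4.42 to 130.4 ± 3.23 CPM (0.38 ± 0.10, edgeR adjusted p = 0.0036). Under Tg, Loxl3 stood at 72.9 ± 9.29 CPM in WT and 62.4 ± 6.91 CPM in PERK -/- cells, and Aup1 at 229.6 ± 11.4 and 216 ± 6.14 CPM. The rise of Afg3l2 in WT cells was not called without Tg replicate 3 (0.25) or DMSO replicate 2 (0.23), without the low-count filter (0.27) or in a fit of the compared groups alone (0.30).

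The difference between the genotypes was tested directly, as the response in PERK -/- cells minus that in WT cells. For Tg it passed for 7 of the 10 genes, 6 with a lower response in PERK -/- cells (18.6% of all tested genes) and 1, Spg7, with a higher one (19.5%). The difference was -1.31 ± 0.16, edgeR adjusted p = 1.4e-07 for Lonp1, -1.27 ± 0.14, edgeR adjusted p = 7.49e-09 for Hspa9 and -1.18 ± 0.15, edgeR adjusted p = 1.44e-07 for Htra2. Clpp (-0.78), Afg3l2 (-0.74) and Hspd1 (-0.66) followed, and Spg7 differed by 0.53 ± 0.12, edgeR adjusted p = 0.000657. Hspe1, Trap1 and Clpx did not pass, with differences of 0.00 (95% interval -0.48 to 0.48), -0.20 (-0.43 to 0.03) and -0.22 (-0.50 to 0.06). The median difference was -0.70 over the 10 genes and 0.03 over all tested genes.

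**Figure D2:**
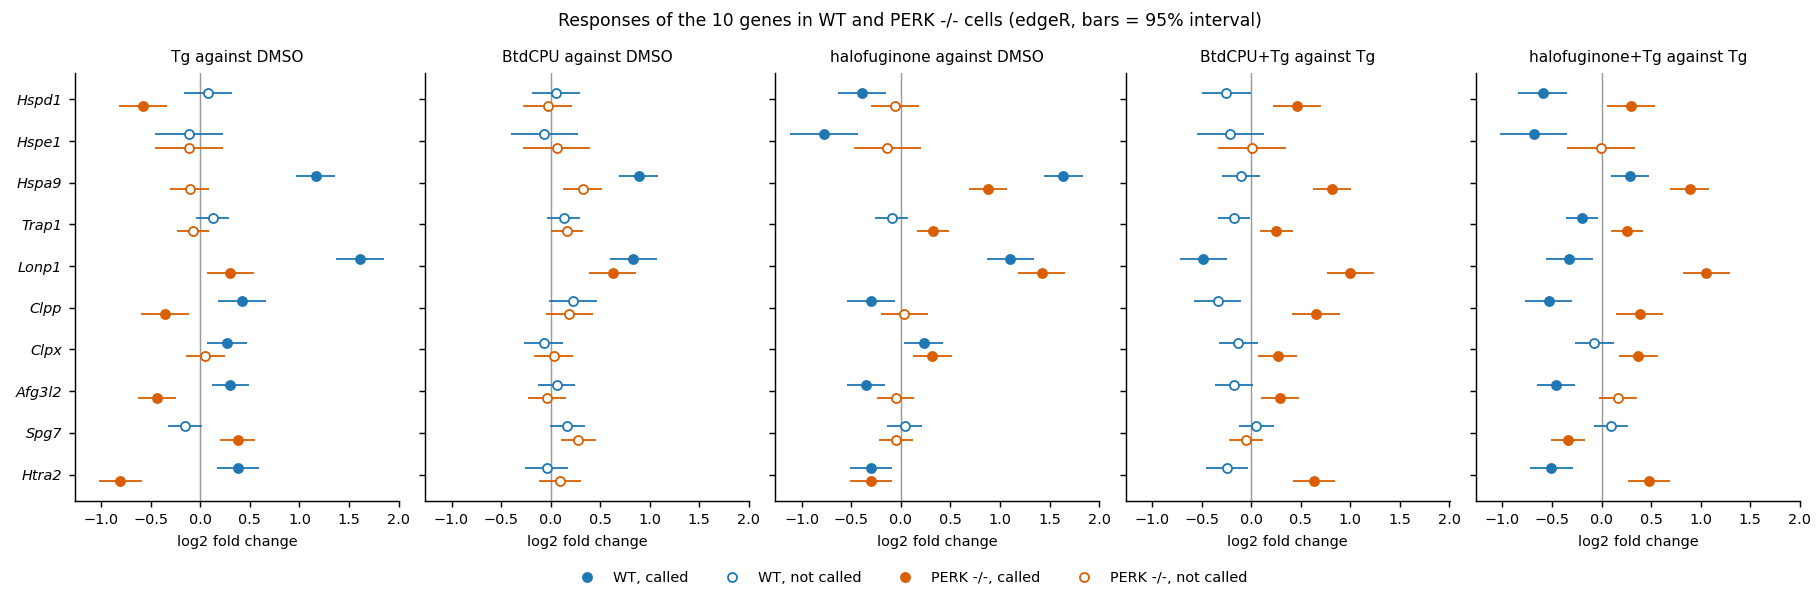
Log2 fold change of each gene (horizontal axis) for 5 comparisons (panels) in WT (blue) and PERK -/- cells (orange), with 95% intervals from edgeR and filled points for an adjusted p under 0.05. Under Tg the points of Hspa9, Lonp1, Clpp, Afg3l2 and Htra2 lie to the right in WT cells and further left in PERK -/- cells, and in the panels of compound with Tg against Tg the PERK -/- points of 9 genes lie to the right of the WT points, Spg7 being the exception.

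Given alone, BtdCPU raised Hspa9 and Lonp1 among the 10 genes in WT cells and Lonp1 in PERK -/- cells, and edgeR called no other of the 10. In WT cells Hspa9 stood at 2001, 1438 and 1915 CPM (log2 change from DMSO 0.89 ± 0.10, edgeR adjusted p = 3.41e-08) and Lonp1 at 363, 259 and 331 CPM (0.83 ± 0.12, edgeR adjusted p = 3.44e-06). Replicate 2 was the lowest of the WT BtdCPU libraries for both genes, yet above every WT DMSO library. Of all tested genes 12.9% were called higher and 9.31% lower. Lonp1 was at 378, 394 and 400.0 CPM in PERK -/- libraries (0.63 ± 0.12, edgeR adjusted p = 0.000778), and 2.55% of all tested genes were called higher and 1.04% lower. There Hspa9 missed the threshold (0.32 ± 0.10, edgeR adjusted p = 0.0528) although its libraries, at 1661, 1557 and 1513 CPM, did not overlap with DMSO. Spg7 missed it too (0.28 ± 0.08, edgeR adjusted p = 0.0597). Both were called with DESeq2 (Hspa9 0.32, Spg7 0.28) and with raw library sizes (0.33 and 0.28), and Hspa9 in a fit of the compared groups alone (0.32).

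The response to BtdCPU alone passed the test of a difference between genotypes for none of the 10 genes with edgeR, and for 1 of the 10 at an unadjusted p under 0.05. Called higher in PERK -/- cells were 0.0373% and lower 0.162% of all tested genes. That 1 gene was Hspa9, with a difference of -0.57 ± 0.13, edgeR adjusted p = 0.0685. DESeq2 called it lower in PERK -/- cells (-0.56), and so did edgeR without WT BtdCPU replicate 2 (-0.70). For Lonp1 the difference was -0.21 with a 95% interval of -0.54 to 0.13.

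Halofuginone alone moved the 10 genes in both directions in WT cells. Hspa9, Lonp1 and Clpx rose (3 of 10, close to the 34.7% of all tested genes called higher), and Hspe1, Hspd1, Afg3l2, Clpp and Htra2 fell (5 of 10, against 33.4% called lower). Hspa9 reached 3209, 2925 and 2869.9 CPM, its highest level in any group (log2 change 1.64 ± 0.10, edgeR adjusted p = 2.98e-15). Hspe1 stood at 67.9, 66.9 and 46.5 CPM, below every WT DMSO library (112, 108 and 90.1 CPM), a log2 change of -0.78 ± 0.17, edgeR adjusted p = 0.000153. Hspd1 was at 552, 449 and 361 CPM, where replicate 1 overlapped with the DMSO libraries (-0.40 ± 0.12, edgeR adjusted p = 0.00451). Lonp1 was at 411, 424 and 317 CPM (1.11 ± 0.12, edgeR adjusted p = 8.23e-10). Afg3l2 (-0.35), Clpp (-0.30) and Htra2 (-0.30) fell by similar amounts, and Trap1 (-0.09) and Spg7 (0.04) were not called.

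Replicate 3 of the WT halofuginone group was the lowest of all 36 libraries for Hspe1, Clpp, Afg3l2 and Htra2. Without it, 5 of the 10 genes were called in place of 8, and Hspd1 (-0.25), Clpp (-0.17) and Htra2 (-0.25) were lost. Clpp was also lost without DMSO replicate 1 (-0.29), and Clpx without halofuginone replicate 1 (0.18) or 2 (0.23), without DMSO replicate 3 (0.14), with raw library sizes (0.10) and without the low-count filter (0.16). In a fit of the compared groups alone, Hspd1 (-0.40), Afg3l2 (-0.35), Clpp (-0.30) and Clpx (0.23) were no longer called. Loxl3, which overlaps Htra2, stood at 47.5 ± 4.25 CPM in this group, against 271 ± 33.8 CPM in DMSO. Aup1, which also overlaps Htra2, stood at 185 ± 13.4 CPM, against 159 ± 0.561 CPM in DMSO.

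Halofuginone in PERK -/- cells raised Lonp1, Hspa9, Trap1 and Clpx (4 of 10, against 21.2% of all tested genes) and lowered Htra2 (1 of 10, against 21.0%). Lonp1 reached 673, 689 and 668 CPM, the highest group mean of this gene (676 CPM, log2 change 1.42 ± 0.12, edgeR adjusted p = 3.83e-11). Hspa9 was at 2164, 2206 and 2584 CPM (0.88 ± 0.10, edgeR adjusted p = 9.36e-09) and Trap1 at 206, 232 and 203 CPM (0.32 ± 0.08, edgeR adjusted p = 0.0015). Clpx rose by 0.32 and Htra2 changed by -0.30. The call of Clpx was lost without DMSO replicate 3 (0.24), and that of Htra2 without halofuginone replicate 1 (-0.28) or 3 (-0.23), without DMSO replicate 2 (-0.22) and without the low-count filter (-0.29). The chaperonin pair was not called in PERK -/- cells (Hspd1 -0.06, 95% interval -0.31 to 0.18; Hspe1 -0.14, -0.48 to 0.20).

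Between the genotypes, the halofuginone response differed for 3 of the 10 genes: it was lower in PERK -/- cells for Hspa9 (-0.76 ± 0.13, edgeR adjusted p = 6.06e-05) and higher for Trap1 (0.42 ± 0.11, edgeR adjusted p = 0.00473) and Hspe1 (0.64 ± 0.24, edgeR adjusted p = 0.0348). Of all tested genes 17.5% had a higher and 17.5% a lower response. Lonp1 (0.31, 95% interval -0.02 to 0.65) did not pass. The call of Hspe1 was lost without WT halofuginone replicate 3 (0.48), WT DMSO replicate 1 (0.58) or 2 (0.60), PERK -/- halofuginone replicate 2 (0.60), or PERK -/- DMSO replicate 1 (0.59) or 3 (0.59). With raw library sizes, which moved the median of all genes in this comparison from 0.00 to 0.10, Hspd1 (0.43), Lonp1 (0.41), Clpp (0.44) and Afg3l2 (0.39) were called higher too. With that scaling 3446 of all tested genes were called higher, against 2807 in the reported fit.

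Adding either compound to Tg moved most of the 10 genes up in PERK -/- cells and down or not past the threshold in WT cells. In PERK -/- cells BtdCPU with Tg raised 8 of the 10 genes over Tg alone and lowered none (0 also at an unadjusted p under 0.05), and halofuginone with Tg raised 7 and lowered Spg7. In WT cells BtdCPU with Tg lowered Lonp1 and no other of the 10 genes in the fit without a replicate block. A fit blocked on the replicate number called 3 genes lower there, as given below beside its own counts over all genes. Halofuginone with Tg lowered 7 genes and raised Hspa9 in WT cells. For PERK -/- cells the background was 17.3% higher and 18.3% lower with BtdCPU, and 25.2% higher and 27.5% lower with halofuginone. For WT cells it was 1.29% higher and 1.02% lower with BtdCPU, and 22.8% higher and 22.5% lower with halofuginone. For PERK -/- cells the median log2 change of the 10 genes was 0.38 and 0.33, against -0.04 and -0.01 over all genes. The shares called higher there were 8 and 7 of 10. The 10 genes were chosen with earlier results of these data known, so these shares only describe them. In WT cells the median was -0.19 and -0.39, against 0.00 and 0.00. The 2 comparisons of a genotype share their Tg libraries, so they are not independent of each other.

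Lonp1 and Hspa9 had the largest rises in PERK -/- cells. Lonp1 stood at 579, 596 and 698 CPM with BtdCPU and Tg and at 639, 661 and 647 CPM with halofuginone and Tg, against 299.7, 317 and 319 CPM with Tg alone. Its log2 changes were 1.00 ± 0.12, edgeR adjusted p = 5.12e-08, and 1.06 ± 0.12, edgeR adjusted p = 4.37e-09. Hspa9 was at 2009.6, 2052 and 2118 CPM with BtdCPU and Tg and 2029, 2222 and 2252 CPM with halofuginone and Tg, above every PERK -/- Tg library (0.82 ± 0.10, edgeR adjusted p = 6.46e-08, and 0.89 ± 0.10, edgeR adjusted p = 3.01e-09). These levels of Hspa9 stood beside 2269.9, 1997 and 2218 CPM in WT cells under Tg alone.

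Of the 4 genes that had fallen under Tg in PERK -/- cells, Htra2, Clpp and Hspd1 were called higher over Tg with both compounds. Afg3l2, given below, was called only with BtdCPU. The fall and the rise share the PERK -/- Tg libraries, so a low Tg level enters both and the rise is not independent of the fall. The same holds in reverse for Spg7. Htra2 was at 182 ± 5.14 CPM with BtdCPU and Tg (0.63 ± 0.10, edgeR adjusted p = 1.53e-05) and 163 ± 20.9 CPM with halofuginone and Tg (0.48 ± 0.10, edgeR adjusted p = 0.000239). Clpp was at 145 ± 8.67 CPM (0.65 ± 0.12, edgeR adjusted p = 4.84e-05) and 121 ± 8.42 CPM (0.39 ± 0.12, edgeR adjusted p = 0.00608). Hspd1 was at 580.5, 577 and 583 CPM with BtdCPU and Tg, all above the 3 Tg libraries (0.46 ± 0.12, edgeR adjusted p = 0.0028). With halofuginone and Tg it was at 496, 568 and 487 CPM (0.30 ± 0.12, edgeR adjusted p = 0.037), and that call was lost without replicate 2 of the combination (0.22) or replicate 1 (0.32) or 3 (0.22) of Tg. Its partner Hspe1 was called with neither compound (95% intervals -0.33 to 0.35 and -0.34 to 0.34). Spg7, which had risen under Tg, fell with halofuginone (-0.34 ± 0.08, edgeR adjusted p = 0.00106) and was not called with BtdCPU (-0.06 ± 0.08, edgeR adjusted p = 0.65).

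Trap1 rose by 0.25 with BtdCPU and 0.26 with halofuginone over Tg in PERK -/- cells, and Clpx by 0.27 and 0.37. Afg3l2 rose with BtdCPU (0.29 ± 0.09, edgeR adjusted p = 0.0141) and was not called with halofuginone (0.17, 95% interval -0.02 to 0.36). Without replicate 3 of the BtdCPU and Tg group, 5 genes were called in place of 8, and Trap1 (0.22), Clpx (0.26) and Afg3l2 (0.26) were lost. Clpx was also lost without replicate 1 of that group (0.25) and without Tg replicate 2 (0.28) or 3 (0.22), with raw library sizes (0.24) and without the low-count filter (0.30), which also lost Trap1 (0.29).

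In WT cells with halofuginone and Tg, the chaperonin pair and the proteases other than Clpx and Spg7 were lower than with Tg alone. Hspe1 stood at 69.0, 62.0 and 47.1 CPM against 119.8, 91.2 and 75.5 CPM (-0.69 ± 0.17, edgeR adjusted p = 0.00117), and Hspd1 at 469, 440.4 and 341 against 682, 556 and 650.3 CPM (-0.60 ± 0.12, edgeR adjusted p = 0.000145). Clpp (-0.53), Htra2 (-0.51), Afg3l2 (-0.46), Lonp1 (-0.32) and Trap1 (-0.20) fell too, while Hspa9 rose by 0.29. The smaller changes rested on single libraries. Lonp1 was lost without halofuginone and Tg replicate 1 (-0.30) or 3 (-0.28) or Tg replicate 1 (-0.28) or 3 (-0.25), Trap1 without the same 4 libraries (-0.19, -0.14, -0.16 and -0.20), and Hspa9 without Tg replicate 2 (0.23). All 3 were lost in a fit of the compared groups alone (-0.32, -0.20 and 0.29), and Trap1 (-0.24) and Hspa9 (0.24) without the low-count filter.

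With BtdCPU and Tg, WT cells held Lonp1 at 436, 385 and 351 CPM, each library below each WT Tg library (-0.48 ± 0.12, edgeR adjusted p = 0.0217). This call was lost without replicate 2 (-0.47) or 3 (-0.41) of the combination, Tg replicate 1 (-0.44) or 3 (-0.40), and in a fit of these groups alone (-0.48). Libraries of the same number deviated together in these 2 groups. A fit blocked on that number called 3 genes lower: Lonp1, Clpp (-0.33) and Htra2 (-0.24). With that block 2079 of all tested genes were called, 1105 of them higher, against 372 and 208 without it. DESeq2 also called Clpp lower (-0.35), with 866 of all tested genes called, 403 of them higher.

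Tested as a difference between genotypes, the effect of BtdCPU over Tg was higher in PERK -/- cells for 8 of the 10 genes (10.7% of all tested genes higher, 10.1% lower), and that of halofuginone over Tg was higher for 9 and lower for Spg7 (15.9% higher, 16.9% lower). Lonp1 had the largest differences, 1.48 ± 0.16, edgeR adjusted p = 9.53e-08 with BtdCPU and 1.38 ± 0.16, edgeR adjusted p = 1.08e-07 with halofuginone. For Hspa9 they were 0.92 and 0.60, for Clpp 0.99 and 0.92, for Htra2 0.88 and 0.99, and for Hspd1 0.71 and 0.89. Hspe1 passed with halofuginone (0.68 ± 0.24, edgeR adjusted p = 0.0254) and did not pass with BtdCPU (0.22, 95% interval -0.26 to 0.70). These differences use the same Tg libraries of both genotypes as the difference in the Tg response, so a low PERK -/- Tg level enters both. The call of Hspe1 was lost without WT halofuginone and Tg replicate 3 (0.54), WT Tg replicate 1 (0.49), PERK -/- halofuginone and Tg replicate 1 (0.63) or 2 (0.64), or PERK -/- Tg replicate 1 (0.66) or 3 (0.57), and that of Spg7 (-0.43) without the low-count filter (-0.36). Clpx differed by 0.40 with BtdCPU, a call lost without 7 of the 12 libraries in turn (from 0.33 to 0.41: WT BtdCPU and Tg replicate 3, WT Tg replicates 1 and 2, PERK -/- BtdCPU and Tg replicates 1 and 3, PERK -/- Tg replicates 2 and 3), with raw library sizes (0.32) and without the low-count filter (0.45).

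Set against DMSO, both combinations left Hspa9 and Lonp1 higher in both genotypes. In WT cells BtdCPU with Tg raised these 2 alone (Hspa9 1.06, Lonp1 1.13; 28.0% of all tested genes higher, 24.5% lower). Halofuginone with Tg raised them (1.45 and 1.29) and lowered Hspe1 (-0.80) and Hspd1 (-0.52; 34.3% higher, 31.4% lower). In PERK -/- cells BtdCPU with Tg raised Lonp1 (1.30), Hspa9 (0.71), Clpx (0.32) and Spg7 (0.32) and lowered none (0 also at an unadjusted p under 0.05; 16.8% higher, 14.6% lower). Halofuginone with Tg raised Lonp1 (1.36), Hspa9 (0.78) and Clpx (0.42) and lowered Htra2 (-0.32) and Afg3l2 (-0.27; 22.9% higher, 22.2% lower). Both falls were lost without replicate 3 of the combination (Htra2 -0.22, Afg3l2 -0.25) or DMSO replicate 2 (-0.25 and -0.25), which left 3 genes called in place of 5. That of Afg3l2 was also lost without DMSO replicate 3 (-0.25) or the low-count filter (-0.27), and the rise of Clpx with BtdCPU and Tg without DMSO replicate 3 (0.24).

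Ratios of 2 transcripts within a library do not depend on scaling between libraries, and the means of several of them differed between groups. They are not divided by length, so only a change of a ratio between groups can be read, not which of the 2 transcripts is more abundant. The log2 ratio of Hspa9 to Hspd1, which both serve newly imported proteins, was 0.70 ± 0.10 (mean ± SD, n = 3) in WT DMSO, 1.78 ± 0.06 in WT Tg and 2.75 ± 0.23 in WT halofuginone libraries. The PERK -/- values were 1.00 ± 0.01, 1.48 ± 0.02 and 1.94 ± 0.14. The ratio thus spanned a far wider range than that of Hspe1 to Hspd1, which lay between -2.92 ± 0.06 in PERK -/- halofuginone and -2.38 ± 0.14 in PERK -/- Tg libraries. Lonp1 to Clpp, the 2 matrix proteases, stood at 1.10 ± 0.12 in WT and 1.09 ± 0.04 in PERK -/- DMSO libraries and was higher in each of the other 10 groups, up to 2.51 ± 0.17 in WT halofuginone with Tg. For the m-AAA subunits the ratio moved in opposite directions under Tg. The log2 ratio of Afg3l2 to Spg7 was -0.18 ± 0.08 in WT DMSO and 0.28 ± 0.18 in WT Tg, and 0.54 ± 0.10 in PERK -/- DMSO and -0.27 ± 0.14 in PERK -/- Tg libraries. Clpx to Clpp was 0.23 ± 0.15 in WT and -0.60 ± 0.17 in PERK -/- DMSO libraries, and in all 6 treatments the group mean was lower in PERK -/- than in WT cells. No test was run on these ratios.

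**Figure D3:**
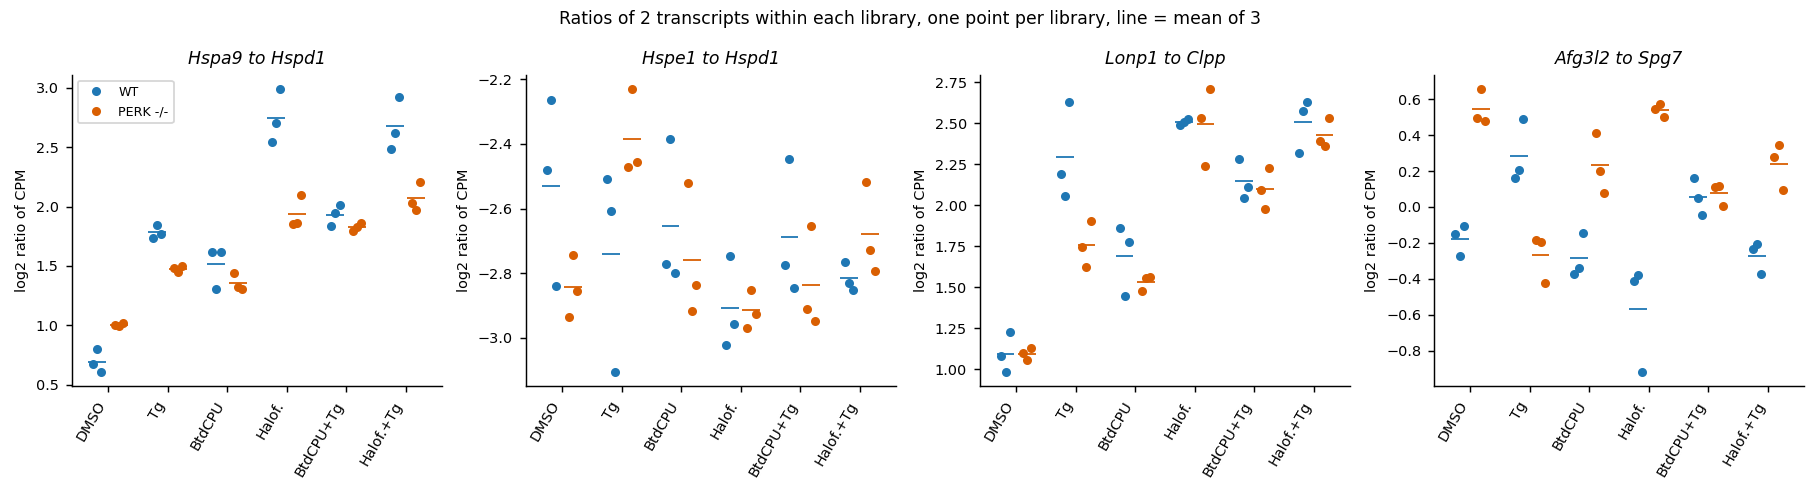
Log2 ratio of 2 transcripts within a library (vertical axis, each panel with its own range) in the 6 treatments (horizontal axis), 1 point per library, blue for WT and orange for PERK -/-, with a line at the mean of 3. The ratio of Afg3l2 to Spg7 rises under Tg in WT libraries, from -0.18 to 0.28, and drops in PERK -/- libraries, from 0.54 to -0.27.

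Put in order of their group means, from the lowest to the highest CPM (mean ± SD, n = 3), the 12 groups stood as follows for the chaperones. The order for Hspd1 was WT halofuginone with Tg (417 ± 67.5), PERK -/- Tg (421 ± 41.7), WT halofuginone (454 ± 95.4), PERK -/- halofuginone with Tg (517 ± 44.4), WT BtdCPU with Tg (529 ± 52.8), PERK -/- BtdCPU with Tg (580.2 ± 3.21), WT DMSO (597 ± 66.6), PERK -/- halofuginone (602 ± 3.95), PERK -/- BtdCPU (616 ± 6.84), WT BtdCPU (619 ± 34.2), PERK -/- DMSO (629 ± 37.8) and WT Tg (629.5 ± 65.4). For Hspe1 it was WT halofuginone with Tg (59.4 ± 11.2), WT halofuginone (60.4 ± 12.1), PERK -/- halofuginone (79.9 ± 3.83), PERK -/- halofuginone with Tg (80.9 ± 9.18), PERK -/- Tg (81.1 ± 14.4), PERK -/- BtdCPU with Tg (81.5 ± 8.89), WT BtdCPU with Tg (82.6 ± 13.4), PERK -/- DMSO (87.8 ± 10.3), PERK -/- BtdCPU (91.6 ± 13.2), WT Tg (95.5 ± 22.5), WT BtdCPU (98.8 ± 11.4) and WT DMSO (103 ± 11.7). Neighbours overlapped in 10 of 11 places for both genes. The exceptions were PERK -/- halofuginone and PERK -/- BtdCPU for Hspd1, and WT and PERK -/- halofuginone for Hspe1, and within each genotype the 2 lowest Hspe1 means were those of the halofuginone groups. The order for Hspa9 was WT DMSO (963 ± 47.9), PERK -/- Tg (1170.0 ± 100.1), PERK -/- DMSO (1262 ± 64.0), PERK -/- BtdCPU (1577 ± 76.2), WT BtdCPU (1785 ± 303), WT BtdCPU with Tg (2013 ± 79.4), PERK -/- BtdCPU with Tg (2059.7 ± 54.4), WT Tg (2162 ± 145), PERK -/- halofuginone with Tg (2168 ± 121), PERK -/- halofuginone (2318 ± 232), WT halofuginone with Tg (2635 ± 67.0) and WT halofuginone (3001 ± 182). Its WT DMSO libraries lay below those of every other group and its WT halofuginone libraries above, and 8 of the 11 neighbours overlapped. For Trap1 the order was PERK -/- Tg (162 ± 1.60), PERK -/- DMSO (171 ± 15.3), WT halofuginone (189 ± 16.1), PERK -/- BtdCPU (191 ± 5.79), WT halofuginone with Tg (192 ± 15.2), PERK -/- BtdCPU with Tg (193 ± 8.42), PERK -/- halofuginone with Tg (194 ± 8.91), WT BtdCPU with Tg (195 ± 12.3), WT DMSO (202 ± 8.95), PERK -/- halofuginone (214 ± 16.0), WT Tg (220.1 ± 9.20) and WT BtdCPU (221 ± 10.98). All 11 neighbours overlapped there, and the highest group mean exceeded the lowest by less than for Hspa9.

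Among the matrix proteases the order for Lonp1 was WT DMSO (178 ± 15.7), PERK -/- DMSO (253 ± 14.7), PERK -/- Tg (312 ± 10.7), WT BtdCPU (318 ± 53.0), WT halofuginone (384 ± 58.2), PERK -/- BtdCPU (391 ± 11.5), WT BtdCPU with Tg (391 ± 42.7), WT halofuginone with Tg (436 ± 34.6), WT Tg (546 ± 79.2), PERK -/- BtdCPU with Tg (624 ± 64.2), PERK -/- halofuginone with Tg (649 ± 10.8) and PERK -/- halofuginone (676 ± 10.8). Here 8 of the 11 neighbours overlapped, and the WT DMSO libraries lay below all others. For Clpp the order was WT halofuginone (67.6 ± 10.95), WT halofuginone with Tg (76.9 ± 9.49), WT DMSO (83.3 ± 1.31), WT BtdCPU with Tg (88.1 ± 6.09), PERK -/- Tg (92.5 ± 9.08), WT BtdCPU (97.3 ± 2.43), WT Tg (111 ± 14.8), PERK -/- DMSO (118 ± 6.91), PERK -/- halofuginone with Tg (121 ± 8.42), PERK -/- halofuginone (121 ± 22.2), PERK -/- BtdCPU (135 ± 0.918) and PERK -/- BtdCPU with Tg (145 ± 8.67), and for Clpx it was PERK -/- DMSO (78.4 ± 9.31), PERK -/- BtdCPU (80.0 ± 7.62), PERK -/- Tg (81.3 ± 5.35), WT BtdCPU (93.3 ± 7.33), PERK -/- halofuginone (97.7 ± 3.23), PERK -/- BtdCPU with Tg (97.8 ± 2.98), WT DMSO (97.9 ± 10.5), PERK -/- halofuginone with Tg (105 ± 3.24), WT BtdCPU with Tg (108 ± 9.30), WT halofuginone with Tg (112 ± 7.45), WT halofuginone (115 ± 7.51) and WT Tg (118 ± 11.2). All 11 neighbours overlapped for both. The 5 highest Clpp means were those of PERK -/- groups, while the 4 highest Clpx means were those of WT groups.

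Among the membrane and intermembrane space proteases the order for Afg3l2 was WT halofuginone (81.3 ± 12.5), WT halofuginone with Tg (92.8 ± 3.48), PERK -/- Tg (98.4 ± 2.24), WT DMSO (104 ± 10.5), WT BtdCPU (108 ± 8.97), PERK -/- halofuginone with Tg (111 ± 3.49), WT BtdCPU with Tg (113 ± 7.96), PERK -/- BtdCPU with Tg (120.4 ± 4.90), WT Tg (128 ± 10.5), PERK -/- halofuginone (129 ± 4.67), PERK -/- BtdCPU (130.2 ± 8.06) and PERK -/- DMSO (133 ± 5.90), with 10 of 11 neighbours overlapping. For Spg7 it was PERK -/- halofuginone (88.4 ± 0.936), PERK -/- DMSO (91.6 ± 5.71), PERK -/- halofuginone with Tg (93.8 ± 5.79), WT Tg (105 ± 9.43), WT BtdCPU with Tg (109 ± 2.44), PERK -/- BtdCPU (111 ± 12.2), WT halofuginone with Tg (112 ± 3.90), PERK -/- BtdCPU with Tg (114 ± 9.66), WT DMSO (117 ± 5.22), PERK -/- Tg (119 ± 9.62), WT halofuginone (119.9 ± 6.88) and WT BtdCPU (131 ± 4.61), again with 10 of 11 overlapping. WT halofuginone was lowest for Afg3l2 and next to highest for Spg7. The order for Htra2 was WT halofuginone (81.4 ± 8.22), WT halofuginone with Tg (91.9 ± 5.26), WT BtdCPU (97.6 ± 8.69), WT DMSO (100.4 ± 4.42), WT BtdCPU with Tg (110.3 ± 7.19), PERK -/- Tg (117 ± 18.5), WT Tg (130.4 ± 3.23), PERK -/- halofuginone with Tg (163 ± 20.9), PERK -/- halofuginone (166 ± 18.7), PERK -/- BtdCPU with Tg (182 ± 5.14), PERK -/- DMSO (205 ± 18.5) and PERK -/- BtdCPU (219 ± 2.17), with 9 of 11 overlapping. The 5 highest Htra2 means were those of the PERK -/- groups other than Tg alone, all above every WT mean.

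Over the 12 group means of log2 CPM, Clpp and Htra2 were the most alike pair (Pearson r = 0.93) and Hspe1 and Hspa9 the least alike (r = -0.69). Hspd1 and Hspe1 had r = 0.79, Hspa9 and Lonp1 0.74, and Afg3l2 and Spg7 -0.58. The groups share genotypes and treatments, so these values only describe the 12 means.

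Among 10566 genes whose average log2 CPM was 2 or more, the gene whose 12 group means were most like those of Lonp1 was Hax1 (0.978), where the value is Pearson's r. For Hspa9 it was Aebp2 (0.982), for Hspd1 Gart (0.970), for Hspe1 Rbck1 (0.967), for Htra2 Smyd5 (0.975), for Clpp Spryd7 (0.970), for Clpx Suco (0.955), for Afg3l2 Txnrd3 (0.949) and for Trap1 Rtcb (0.930). The gene most like Spg7 was Afg3l1 (0.912), its paralogue and a further m-AAA subunit of the mouse, whose reads could be shared with Afg3l2 or Spg7 depending on the counting.

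Around the 10 genes, 4 lists of related genes were counted: chaperone cofactors, other proteases and scaffolds, protein import and stress signalling. Oma1 stood in both the protease and the signalling list and was counted in each. Of 7 cofactors, Tg raised 2 and lowered 0 in WT cells and raised 0 and lowered 1 in PERK -/- cells by edgeR. These shares were near those of all tested genes in WT cells for rises (24.9%) and in PERK -/- cells for falls (12.7%). At an unadjusted p under 0.05 they numbered 2 higher and 0 lower in WT, and 0 higher and 2 lower in PERK -/- cells. Dnaja3, the J-protein partner of Hspa9, rose in WT cells under Tg (1.18 ± 0.12, edgeR adjusted p = 6.86e-10), and its log2 change was -0.07 in PERK -/- cells, where it was not called. It rose over Tg with BtdCPU (1.25 ± 0.12, edgeR adjusted p = 7.68e-10) and halofuginone (1.23 ± 0.12, edgeR adjusted p = 1.61e-10) in PERK -/- cells. Grpel2, a nucleotide exchange factor of Hspa9, fell under Tg in PERK -/- cells (-0.80 ± 0.11, edgeR adjusted p = 2.07e-06). Clpb, a disaggregase of the intermembrane space, was higher in PERK -/- than in WT DMSO cells (0.91 ± 0.08, edgeR adjusted p = 5.03e-11).

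Of 16 other mitochondrial proteases, peptidases and their scaffolds, Tg raised 4 and lowered 3 in WT cells (median -0.03), near the 24.9% and 22.7% of all tested genes, and raised 0 and lowered 3 in PERK -/- cells (median -0.09, 0 higher and 5 lower at an unadjusted p under 0.05). The rhomboid protease Parl rose most in WT cells (0.71 ± 0.08, edgeR adjusted p = 4.03e-09). Phb, which forms with Phb2 the prohibitin ring around the m-AAA protease, fell most (-1.27 ± 0.24, edgeR adjusted p = 4.4e-05). Under halofuginone in WT cells 7 of the 16 rose and 8 fell (all tested genes: 34.7% higher, 33.4% lower), with Phb at -2.19 and Lactb, a filament-forming serine protease homologue, at 1.25. In DMSO 8 of the 16 were higher in PERK -/- cells and 0 lower by edgeR, or 9 and 0 at an unadjusted p under 0.05, and of all tested genes 24.6% were higher and 24.9% lower.

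The import machinery showed the broadest fall under Tg in PERK -/- cells among the 4 related lists, judged by the share of members called lower. The 25 genes of this list included channels, receptors, small chaperones and an oxidoreductase. Of these 25 genes, 14 fell and 0 rose under Tg in PERK -/- cells (median -0.32, all genes 0.05, 15 lower and 2 higher at an unadjusted p under 0.05). In WT cells 6 were lower and 3 higher (median -0.04). Of all tested genes 12.7% were lower and 15.2% higher in PERK -/- cells, and 22.7% lower and 24.9% higher in WT cells. The largest fall was that of Timm10, a small chaperone that escorts proteins across the intermembrane space (-1.49 ± 0.22, edgeR adjusted p = 3.62e-06). Over Tg, 10 of the 25 rose with BtdCPU and 12 with halofuginone in PERK -/- cells, while 3 and 4 fell. Of all tested genes 17.3% rose with BtdCPU and 25.2% with halofuginone, and 18.3% and 27.5% fell. Timm10 rose by 1.31 with BtdCPU, and Timm9, its partner in the same hexamer, by 1.88 with halofuginone, the largest rises of the list. Falls under Tg and rises over Tg share the PERK -/- Tg libraries, so for Timm10 and the list they are not independent. Chchd4, the oxidoreductase that folds small intermembrane space proteins, had the largest negative difference between genotypes in the Tg response (-1.85 ± 0.21, edgeR adjusted p = 2.48e-08). It was also higher in PERK -/- than in WT DMSO cells (1.48 ± 0.15, edgeR adjusted p = 8.34e-10).

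Of 12 genes of mitochondrial stress signalling, Tg raised 9 and lowered 1 in WT cells and raised 5 and lowered 1 in PERK -/- cells, against 24.9% of all tested genes higher and 22.7% lower in WT, and 15.2% higher and 12.7% lower in PERK -/- cells. Atf5, a transcription factor tied to the mitochondrial unfolded protein response, stood at 124 ± 16.3 CPM in WT DMSO and 378 ± 24.9 CPM in WT Tg cells. In PERK -/- cells it was at 51.1 ± 5.29 CPM in DMSO, 81.2 ± 10.9 CPM in Tg, 113 ± 9.53 CPM with BtdCPU and Tg and 115 ± 3.00 CPM with halofuginone and Tg. The PERK -/- group means of Atf5 were below the WT DMSO mean in all 6 treatments, DMSO included. Those of Lonp1 and Hspa9 were above their WT DMSO means in all 6, again with DMSO included. In PERK -/- cells, in the same order as Atf5 from DMSO to halofuginone and Tg, mean Lonp1 was 253, 312, 624 and 649 CPM. Mean Hspa9 was 1262, 1170, 2060 and 2168 CPM. With BtdCPU alone, Atf5 was at 72.0, Lonp1 at 391 and Hspa9 at 1577 CPM in PERK -/- cells. With halofuginone alone they were at 104, 676 and 2318 CPM. Atf5 was thus lower with BtdCPU alone than with Tg, while Lonp1 and Hspa9 were higher. The order of the PERK -/- group means therefore differed between Atf5 and these genes. Any link of Atf5 to these genes was not tested. Atf4 stood at 360.3 ± 38.7 and 1408 ± 87.7 CPM in WT DMSO and Tg cells, at 582 ± 58.1 and 721 ± 62.4 CPM in PERK -/- DMSO and Tg cells, and at 1370.4 ± 74.5 and 831 ± 62.3 CPM when BtdCPU or halofuginone was given with Tg to PERK -/- cells.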

How the data were processed

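RNA of fibroblasts was sequenced as 36 strand-specific libraries on a DNBSEQ platform, per the labels' protocols, which name both ribosomal depletion and mRNA selection. The authors deposited 1 table of estimated counts per gene symbol, with values that need not be whole. The submitters' processing notes name the build GRCm39 and DESeq, and the aligner, the counter, the annotation and the use of strand are not given in the sources used here. A value of 0.025 stood for 0 (50.6% of values), and 2.69% of the other values were not whole. Zeros were restored and values rounded, 27 entries whose symbols had become dates were left out (0.206% to 0.278% of counts per library), and 39 symbols on 86 entries were summed, which left 36856 symbols. All table columns were matched to samples by their labels.

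Symbols passing filterByExpr (16065) were fitted with edgeR 4.0.16 in R 4.3.3 (limma 3.58.1): TMM scaling, 12 group means, robust quasi-likelihood tests, Benjamini-Hochberg adjustment over all tested genes within each of 20 comparisons, of which 5 were differences between genotypes. The common dispersion was 0.0199 with 24 residual degrees of freedom, and no 2 replicates agreed within sampling noise. Libraries held 32454257 to 37178107 counts. The fit was tested on simulated data first. The 10 genes and the related lists were chosen with earlier results of these data known. Of the cofactor, protease and import lists, the text names some of the genes called with the largest rise or fall in a comparison. Of the signalling list it names Atf4 and Atf5 as readouts, and Oma1 only as a gene that the protease list holds too. CPM per kilobase used the longest principal transcript of the GENCODE annotation of GRCm38, and promoter windows came from RefSeq on GRCm38.p6. No genome of the authors' build was used here, so coordinates refer to GRCm38.p6.

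Replicate numbers shared between groups were checked by correlating deviations from group means over genes. Every pair exceeded 0.1 in 2 of 15 comparisons of groups, BtdCPU with Tg against Tg (0.159, 0.312 and 0.337) and halofuginone with Tg against Tg (0.162, 0.201 and 0.308), both in WT cells. These 2 count as paired, from the data and not from the labels. Alternatives were DESeq2 1.42.0, its size factors, raw library sizes, no filter on low counts, the compared groups alone, a block on the replicate number, and leaving out each library.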

Additional observations from a re-analysis of the deposited data

Results flagged for a closer look

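For 28 pairings of a gene and a treatment, over 5 comparisons of the 10 genes, the response differed between PERK -/- and WT cells by the test of that difference itself (edgeR, adjusted over all tested genes). Each is given here as the PERK -/- response minus the WT response on the log2 scale. The response of all tested genes was higher in 19.5% and lower in 18.6% for Tg, and 17.5% and 17.5% for halofuginone. Over Tg these shares were 10.7% and 10.1% for BtdCPU, and 15.9% and 16.9% for halofuginone. Under Tg the differences were -1.31 for Lonp1, -1.27 for Hspa9, -1.18 for Htra2, -0.78 for Clpp, -0.74 for Afg3l2, -0.66 for Hspd1 and 0.53 for Spg7. Under halofuginone alone they were -0.76 for Hspa9, 0.64 for Hspe1 and 0.42 for Trap1. For BtdCPU with Tg against Tg they were 1.48 for Lonp1, 0.99 for Clpp, 0.92 for Hspa9, 0.88 for Htra2, 0.71 for Hspd1, 0.46 for Afg3l2, 0.42 for Trap1 and 0.40 for Clpx. For halofuginone with Tg against Tg they were 1.38 for Lonp1, 0.99 for Htra2, 0.92 for Clpp, 0.89 for Hspd1, 0.68 for Hspe1, 0.63 for Afg3l2, 0.60 for Hspa9, 0.45 for Trap1, 0.44 for Clpx and -0.43 for Spg7. The signs under Tg and over Tg were opposite for Lonp1, Hspa9, Htra2, Clpp, Afg3l2, Hspd1 and, with halofuginone, Spg7, and these comparisons share the Tg libraries of both genotypes.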

How the results depend on the processing

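No log2 change of the 10 genes changed sign where it was called, under any alternative run. Counts of the 10 genes called moved by over 1.5 times in these cases. With the replicate block, 4 were called for BtdCPU in WT cells (2 without it), 3 for BtdCPU in PERK -/- cells (1 without it), 3 for BtdCPU with Tg against Tg in WT cells (1 without it), 1 for the difference between genotypes in the BtdCPU response (0 without it) and 5 for that in the halofuginone response (3 without it). DESeq2 called 2 for BtdCPU with Tg against Tg in WT cells, 3 for BtdCPU in PERK -/- cells and 1 for the difference in the BtdCPU response. Raw library sizes gave 3 for BtdCPU in PERK -/- cells and 7 for the difference in the halofuginone response. Over all tested genes, that difference was called for 5615 in the reported fit (2807 higher). It was called for 5824 with raw library sizes (3446 higher) and for 7292 with the block (3732 higher). For BtdCPU in PERK -/- cells, raw library sizes called 568 of all tested genes, against 577 in the reported fit. Fits of the compared groups alone gave 4 for halofuginone, 0 for BtdCPU with Tg against Tg and 5 for halofuginone with Tg against Tg in WT cells, and 2 for BtdCPU in PERK -/- cells. In WT cells these fits called 9814 of all tested genes for halofuginone, against 10949 in the reported fit. For halofuginone with Tg against Tg they called 6012, against 7276. The other counts over all genes for these alternatives are given below.

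Leaving out each library in turn gave 5 to 8 of 10 for halofuginone in WT cells (5 without halofuginone replicate 3), 0 to 1 for BtdCPU with Tg against Tg in WT cells, 5 to 8 for the same in PERK -/- cells (5 without replicate 3 of the combination), 3 to 6 for halofuginone with Tg against DMSO in PERK -/- cells, and 0 to 1 for the difference in the BtdCPU response. For Tg in PERK -/- cells it gave 4 to 5, so the count of 6 with all libraries was reached in none of these runs. For halofuginone with Tg against Tg in WT cells it gave 6 to 8. Over single genes, leaving out a library kept direction and side of the threshold in 1412 values, with 76 calls lost and 12 gained.

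Replicate numbers in the labels carry no stated meaning. The replicate block changed no call of halofuginone with Tg against Tg in WT cells, one of the 2 paired comparisons, and was not run for PERK -/- against WT in DMSO, where it is nested in genotype. The causes of these shifts were not tested. Over all tested genes, counts called moved by over 1.5 times (value of the reported fit first) for BtdCPU in PERK -/- cells (577, with DESeq2 877, with the compared groups alone 1243, with the block 1577), for BtdCPU in WT cells (3571, alone 841, block 5534), for BtdCPU with Tg against Tg in WT cells (372, DESeq2 866, no filter 813, alone 35, block 2079) and for the difference in the BtdCPU response (32, DESeq2 161, no filter 314, alone 2, block 587). The share called higher moved with raw library sizes from 58.1% to 45.1% for BtdCPU in WT cells, from 55.9% to 80.7% for BtdCPU with Tg against Tg in WT cells and from 51.6% to 41.4% for the difference in that response, and with the compared groups alone from 58.1% to 69.0% for BtdCPU in WT cells and from 71.1% to 60.3% for BtdCPU in PERK -/- cells. With 3 libraries a group, changes near 0.3 log2 units often depended on 1 library.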
